A study of Mus musculus with 6 samples.

Results

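The genes described are the collagens, laminins and integrins of cultured mouse oligodendrocyte progenitor cells (OPCs), chosen by symbol: every mouse gene whose symbol begins with Col, a number, a and a number, with Lama, Lamb or Lamc and a number, or with Itga or Itgb and a number. The symbol table holds 79 such genes, and 78 of them had a value in at least 1 library, among 18743 annotated genes in all. These 78 comprised 43 collagens, 11 laminins and 24 integrin symbols. Col16a1 is not analysed here. The rule also takes Itgb1bp1, Itgb1bp2 and Itgb3bp, which encode no integrin chain, and it passes over the integrin alpha chains with letter names, such as Itgav and Itgam, whose values are given beside the members. The cells were isolated from the cortex of newborn wild-type C57BL/6 mice, with beads against CD140a (PDGFRα), and expanded for 3 days. The sample labels give postnatal day 1. One group of 3 samples received 50 µM hemin, the oxidised form of heme, for 12 h, and the other group of 3 samples received 0.25% DMSO as vehicle. The labels do not state whether the 3 samples of a group are separate cultures, and p-values therefore reflect a spread among samples that could be technical.

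Collagens are triple-helical matrix proteins. Some form fibrils, collagen IV forms the network of basement membranes, and others sit on fibrils or in the cell membrane. Laminins are cross-shaped trimers of an alpha, a beta and a gamma chain that polymerise in basement membranes, and integrins are receptors of an alpha and a beta chain that hold cells to this matrix. In the oligodendrocyte lineage, laminin acting through the α6β1 integrin is known to promote survival and process growth, and αv integrins with several beta chains are expressed at changing levels as progenitors mature.

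Of the members, 57 matched an entry in the RefSeq promoter table (GRCm38.p6) and 21 did not. Those of 4 members on which the results turn are shown, 3 of them higher with hemin and 1 lower. Each run gives the 250 bases before the annotated start site, 5′ to 3′ on the strand of the gene, with capitals marking matches to a GC box (GGGCGG, bound by SP1) or to the core of the antioxidant response element (TGACNNNGC, bound by NRF2 and BACH1), on either strand.
Itga5, chr15:103366792-103367041, minus strand: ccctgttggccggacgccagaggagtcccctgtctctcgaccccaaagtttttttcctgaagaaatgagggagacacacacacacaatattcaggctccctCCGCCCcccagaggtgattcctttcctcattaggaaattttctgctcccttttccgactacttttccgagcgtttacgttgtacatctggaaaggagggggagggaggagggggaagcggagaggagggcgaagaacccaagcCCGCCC
Lamb1, chr12:31265043-31265292, plus strand: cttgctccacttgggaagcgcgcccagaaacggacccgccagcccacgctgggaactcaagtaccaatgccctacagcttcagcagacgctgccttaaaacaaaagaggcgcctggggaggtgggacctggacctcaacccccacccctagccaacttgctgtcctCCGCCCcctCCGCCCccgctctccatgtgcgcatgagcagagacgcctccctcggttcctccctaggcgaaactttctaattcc
Itgb1, chr8:128685404-128685653, plus strand: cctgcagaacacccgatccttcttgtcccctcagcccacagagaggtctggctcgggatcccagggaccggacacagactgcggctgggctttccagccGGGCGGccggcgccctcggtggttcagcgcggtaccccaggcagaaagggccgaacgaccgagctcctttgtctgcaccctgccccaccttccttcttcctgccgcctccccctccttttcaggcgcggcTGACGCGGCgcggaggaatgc
Itgb8, chr12:119238277-119238526, minus strand: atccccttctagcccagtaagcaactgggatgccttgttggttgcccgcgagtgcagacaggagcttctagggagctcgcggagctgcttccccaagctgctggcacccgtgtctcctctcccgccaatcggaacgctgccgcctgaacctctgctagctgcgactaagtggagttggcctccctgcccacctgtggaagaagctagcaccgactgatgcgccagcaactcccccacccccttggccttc
Itga5 and Lamb1 each held 2 GC boxes, Itgb1 held 1 GC box and 1 antioxidant response element core, and Itgb8 held neither. These 4 do not stand for the other called members, since Col9a2, called lower, held 2 GC boxes and 1 antioxidant response element core, and Itga2b, called higher, held none of the motifs searched. Over windows that also include the 50 bases after the start site, a GC box was found in 32 of 63 member entries (50.8%) and in 35.7% of all 32851 promoters of the table. The antioxidant response element core was found in 10 member entries (15.9%) and in 12.4% of all promoters. An AP-1 site (TGANTCA, bound by FOS and JUN) was found in 3 member entries (4.76%), none of them of a called member, against 7.81% of all promoters. An inverted pair of heat shock units (GAANNTTC) was found in 3 member entries (4.76%), among them Col4a5, called higher, against 7.86% of all promoters. All 4 motifs were searched on both strands. The letters are a description of these windows and show no binding.

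Expected counts over annotated genes summed to between 6339966 and 6523639 per library. The label was checked against 10 OPC markers, all of which were above 0 in every library and 9 of which were called lower with hemin. Their summed FPKM, a level scaled for transcript length and library size, was 1312 to 1581 with vehicle and 429.4 to 639.2 with hemin. Markers of astrocytes (526.6 to 609.1 with vehicle, 417.1 to 555.6 with hemin) and neurons (197.0 to 230.1 and 97.2 to 146.3) were also present, and the lists for vascular cells, fibroblasts and microglia summed to between 1.61 and 42.2 in every library. Of 10 astrocyte markers, 5 were called lower (2 without vehicle replicate 1) and 1 higher, and of 10 neuron markers 3 were called lower. Lower calls made up 90.0%, 50.0% and 30.0% of the OPC, astrocyte and neuron lists, beside 15.7% of all genes tested. Without vehicle replicate 1, lower calls over all genes numbered 1136, against 2005 with all libraries. In bulk RNA, fewer cells of a type and less RNA per cell cannot be told apart. The vehicle and the hemin library numbered 3 stood apart for several collagens, as given with those genes.

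Laminins and several integrin chains were higher with hemin, single integrin chains were lower, and most collagens did not pass the test. Of the 78 members, 54 passed the filter on low counts, 28 collagens, 8 laminins and 18 integrin symbols. In edgeR's quasi-likelihood test, with p adjusted by Benjamini-Hochberg over all 12779 genes tested, 14 members were called higher and 3 lower at an adjusted p below 0.05. That is 31.5% of those tested, against 31.9% of all genes, so the share of members called was at the background. By direction, 25.9% of tested members were called higher against 16.2% of all genes, and 5.56% lower against 15.7%. The median log2 fold change was 0.49 over the tested members and 0.00 over all genes tested. By family, the calls comprised 5 of 8 laminins, all higher, 7 of 18 integrin symbols, 5 higher and 2 lower, and 5 of 28 collagens, 4 higher and 1 lower. FPKM values of the groups did not overlap for 22 of the 54 tested members (40.7%), against 49.1% of all genes tested. Since a gene can pass the filter through the group where it is high, these counts describe the tested members only. Without both libraries numbered 3, a setting chosen after seeing the data, 11 of 52 tested members were called higher and 4 lower. Over all genes that setting called 1546 higher and 1121 lower, against 2072 and 2005 with all libraries. Without vehicle replicate 1 or vehicle replicate 2, 1 member was called lower in each case, the small collagen Col9a2. Lower calls over all genes then numbered 1136 and 1109.

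**Figure D1:**
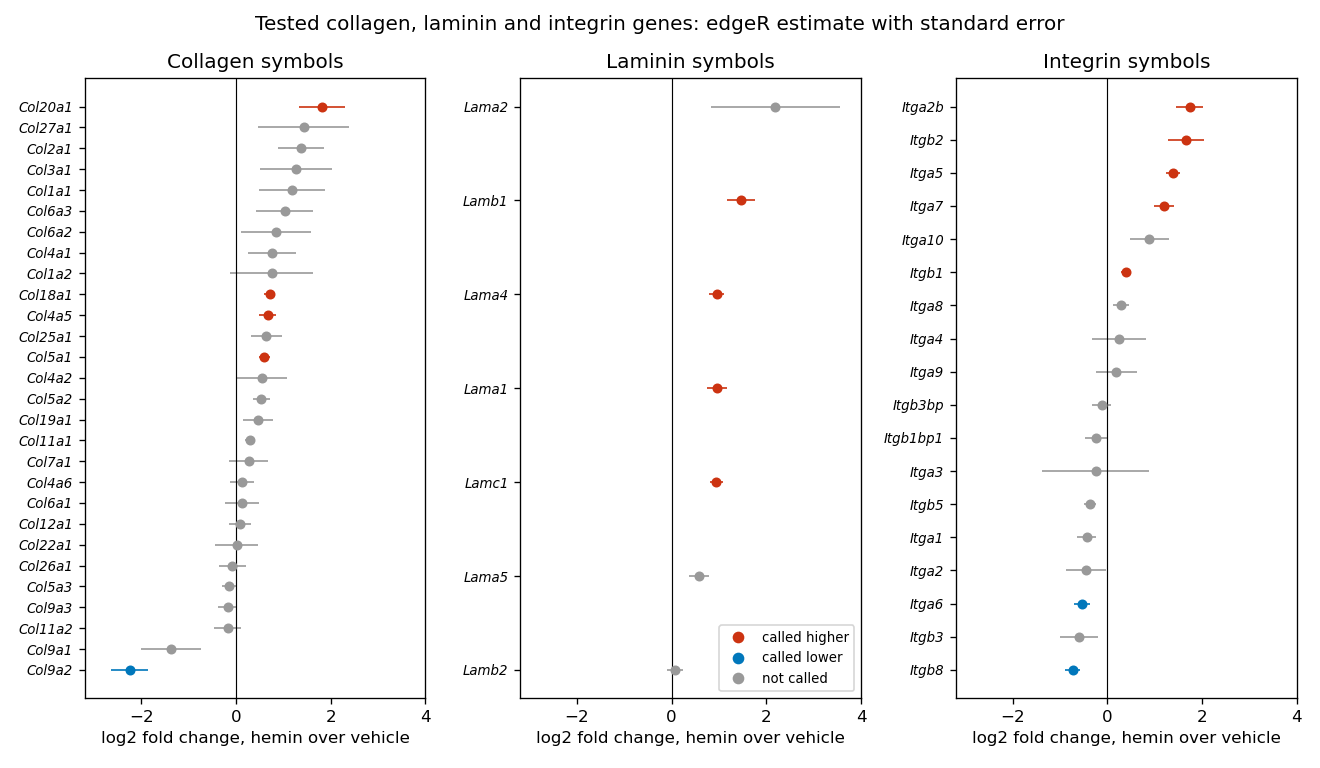
Each point is the edgeR log2 fold change of 1 of the tested members reported here, hemin over vehicle, with its standard error as a bar, sorted within the collagen, laminin and integrin panels and coloured by call at an adjusted p below 0.05. Of the 7 laminins shown, 4 were called higher and none lower, whereas 23 of 28 collagens were not called.

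Laminin chains rose with hemin in each position of the trimer. Lamc1 (gene identifier 226519), the gamma chain shared by most laminins, had FPKM levels of 18.3, 18.0 and 19.4 with vehicle and 40.6, 30.0 and 32.1 with hemin. The lowest hemin library lay well above the highest vehicle library, and the change was 1.92-fold (log2 fold change 0.94 ± 0.14, SE, edgeR adjusted p = 0.00329). Lamb1 (16777), the beta chain of the laminins made early in development, had a FPKM of 1.45, 1.22 and 2.32 in the vehicle libraries and of 3.99, 3.34 and 5.99 in the hemin libraries. It rose 2.75-fold (edgeR adjusted p = 0.0103), again without overlap. In both groups the library numbered 3 was the highest for Lamb1, as it was for Lama1. Lama4 (16775), the alpha chain of vascular and peripheral nerve basement membranes, rose 1.93-fold, from 2.69, 2.30 and 2.72 to 4.60, 5.50 and 4.29 FPKM (edgeR adjusted p = 0.00429). Lama1 (16772), the alpha chain of embryonic basement membranes, rose 1.94-fold, from 0.90, 1.16 and 1.32 to 1.66, 2.16 and 2.55 FPKM (edgeR adjusted p = 0.0129). Neither alpha chain had overlapping groups.

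Lamb2, the beta chain of synaptic and kidney laminins, was among the most abundant laminins with vehicle and did not pass the test. Its levels were 4.90, 5.76 and 5.84 FPKM with vehicle and 4.73, 5.13 and 6.89 with hemin (log2 fold change 0.07 ± 0.16, SE, edgeR adjusted p = 0.781), and its sign turned in 3 alternatives, among them library totals alone (-0.02). Lama5, the most widespread alpha chain, had 4.09, 2.27 and 3.34 FPKM under vehicle and 4.02, 4.48 and 5.40 under hemin (edgeR adjusted p = 0.0827). Its groups overlapped, and it was called without vehicle replicate 1 (0.0493) and by DESeq2 (0.0433). Lama2, the alpha chain of muscle and of brain basement membranes, was counted 0, 5 and 21 times in the vehicle libraries and 0, 41 and 75 times in the hemin libraries (edgeR adjusted p = 0.261), so that its estimate came from the libraries numbered 2 and 3. Summed per position, FPKM levels with vehicle were 5.83 to 7.74 for alpha, 6.43 to 8.24 for beta and 18.4 to 19.5 for gamma chains. With hemin they were 10.4 to 13.2, 8.47 to 12.9 and 31.9 to 42.3. All 3 sums lay higher in every hemin library than in any vehicle library, and the gamma sum, nearly all of it Lamc1, exceeded the other 2 in all 6 libraries.

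**Figure D2:**
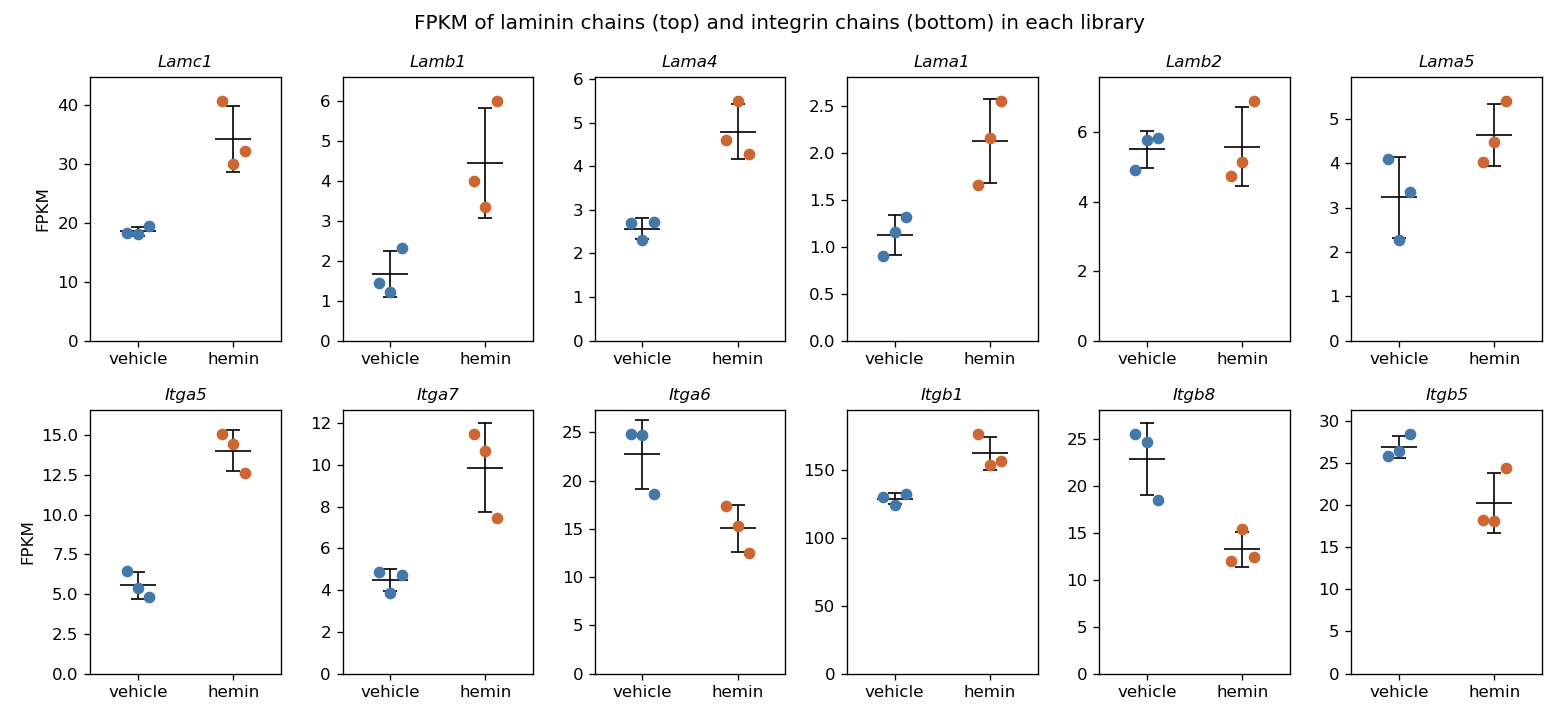
FPKM of 6 laminin and 6 integrin genes in each library (points) with the group mean and SD (black), on linear axes that start at 0. The points of Lamc1, Lamb1, Lama4, Lama1, Itga5, Itga7 and Itgb1 lie higher with hemin without overlap, those of Itga6, Itgb8 and Itgb5 lie lower without overlap, and those of Lamb2 and Lama5 overlap.

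Among integrin alpha chains, Itga5 and Itga7 rose and Itga6 fell. Itga5 (16402), which with the beta 1 chain forms the main fibronectin receptor, rose from 6.48, 5.39 and 4.82 FPKM to 15.1, 14.4 and 12.6, a change of 2.62-fold (log2 fold change 1.39 ± 0.15, SE, edgeR adjusted p = 0.00101). Itga7 (16404), a laminin receptor chain best known from muscle, rose 2.28-fold, from 4.88, 3.88 and 4.72 to 11.5, 10.7 and 7.44 FPKM (edgeR adjusted p = 0.0055). Every hemin library exceeded every vehicle library for both genes. Itga6 (16403), the laminin receptor chain known from the oligodendrocyte lineage, fell 1.45-fold, from 24.8, 24.7 and 18.6 to 17.3, 15.3 and 12.5 FPKM (edgeR adjusted p = 0.0464). The groups did not overlap, with hemin replicate 1 close to vehicle replicate 3. Itga6 was no longer called when 1 library was left out, with an edgeR adjusted p of 0.141 lacking vehicle replicate 1 or 2, 0.112 lacking hemin replicate 2 and 0.0998 lacking hemin replicate 3. Itga2b (16399), the platelet alpha chain that binds fibrinogen, rose 3.35-fold at a low level, from 0.26, 0.23 and 0.32 to 0.94, 0.82 and 0.90 FPKM (edgeR adjusted p = 0.00457). Its only known beta partner, Itgb3, had 0.34, 0.30 and 0.23 FPKM under vehicle and 0.13, 0.29 and 0.14 under hemin (edgeR adjusted p = 0.296).

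The ratio of Itga6 to Itga5 was 3.83, 4.59 and 3.85 in the vehicle libraries and 1.15, 1.06 and 0.991 in the hemin libraries. With vehicle the Itga6 level was several times that of Itga5, and with hemin the 2 levels were close. Taken over the 12 alpha chains that can pair with Itgb1, Itgav included, the summed FPKM was 72.0 to 84.6 with vehicle and 69.4 to 89.8 with hemin, so the group ranges of the sum overlapped. Within that sum, Itga5 made up 6.70% to 7.66% with vehicle and 16.8% to 19.2% with hemin, Itga7 4.83% to 6.56% and 10.7% to 14.2%, and Itga6 25.8% to 30.8% and 18.0% to 20.4%. Itgav (16410), the alpha chain of receptors for vitronectin and latent TGF-β, held the largest share in each library, at 44.1% to 48.2% and 33.9% to 41.1%. Its FPKM was 37.3, 37.2 and 34.7 with vehicle and 33.7, 25.5 and 28.5 with hemin. All hemin values were the lower ones, but the difference did not pass the test (edgeR adjusted p = 0.158). Without hemin replicate 1, 1 of the alpha chains with letter names was called lower and 1 higher.

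The files list 2 transcripts of Itga6, of 6018 and 5888 bases, which differ by 130 bases. Alternative splicing of this gene is known to give 2 cytoplasmic tails, A and B, and the files do not say which transcript encodes which. The longer transcript had FPKM levels of 17.9, 17.1 and 12.0 with vehicle and 9.20, 8.54 and 8.30 with hemin. All hemin values lay lower than the vehicle values. The shorter one had 6.95, 7.64 and 6.56 with vehicle and 8.12, 6.78 and 4.20 with hemin, and its groups overlapped. The longer transcript therefore made up 72.0%, 69.1% and 64.7% of the Itga6 level with vehicle and 53.1%, 55.7% and 66.4% with hemin, shares that overlapped through vehicle replicate 3 and hemin replicate 3. RSEM divides shared reads between transcripts by estimate, and no test was made on transcripts. Of the members, 65 had a single transcript in the files.

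**Figure D3:**
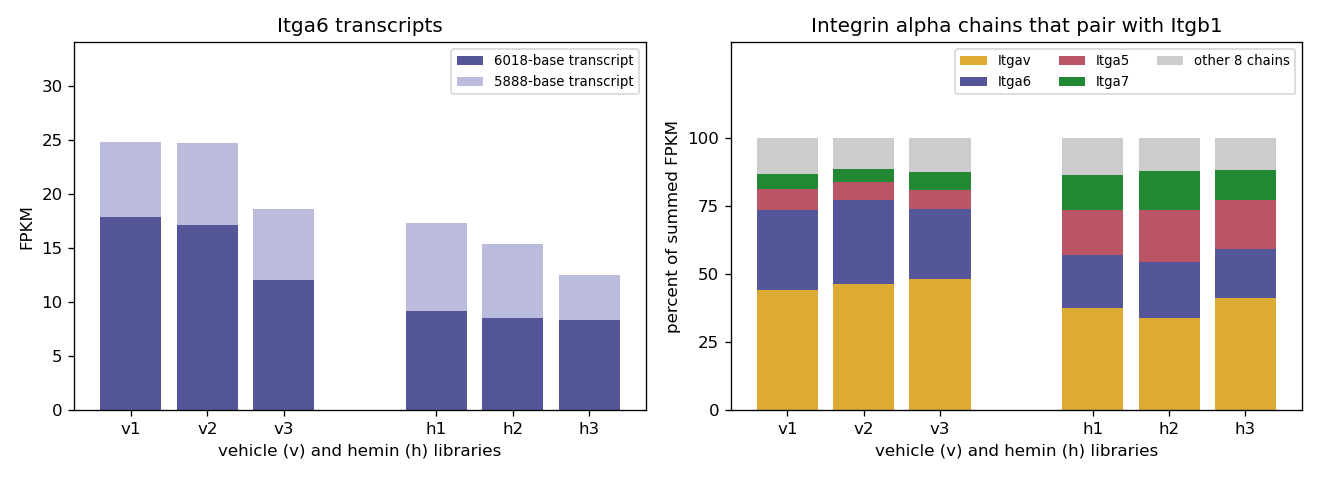
Left, FPKM of the 2 listed Itga6 transcripts, stacked, in the vehicle (v1 to v3) and hemin (h1 to h3) libraries; right, share of each alpha chain in the summed FPKM of the 12 chains that can pair with Itgb1. The 6018-base transcript was 12.0 to 17.9 FPKM with vehicle and 8.30 to 9.20 with hemin, and the Itga5 and Itga7 shares were larger in every hemin library.

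The remaining tested alpha chains among the members did not pass the test. Itga8, a receptor chain for nephronectin, stood at 4.62, 3.73 and 4.41 FPKM under vehicle and 5.51, 4.09 and 5.32 under hemin (edgeR adjusted p = 0.243). Of the collagen-binding chains, Itga1 had 1.59, 1.47 and 1.13 FPKM under vehicle and 0.93, 0.98 and 1.07 under hemin (edgeR adjusted p = 0.142), and Itga2 and Itga10 overlapped between the groups. Itga3, a laminin receptor chain, was counted 55, 7 and 68 times in the vehicle libraries and 52, 52 and 0 times in the hemin libraries. Itga4, the chain that binds VCAM1, was counted 124, 107 and 66 times and 219, 70 and 44 times. The spread of the Itga3 counts within each group left its estimate with a standard error of 1.12 on the log2 scale.

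Beta chains moved in both directions. Itgb1 (16412), the beta chain shared by most laminin, collagen and fibronectin receptors, had the highest FPKM of all members, 130, 124 and 132 with vehicle and 176, 153 and 157 with hemin. It rose 1.31-fold (log2 fold change 0.39 ± 0.10, SE, edgeR adjusted p = 0.024) without overlap. Leaving out vehicle replicate 1 or 2, or both libraries numbered 3, ended this call (edgeR adjusted p = 0.0723, 0.0831 and 0.0524). Itgb8 (320910), which pairs with the αv chain to activate latent TGF-β, fell 1.66-fold, from 25.5, 24.6 and 18.5 to 11.9, 15.4 and 12.4 FPKM (edgeR adjusted p = 0.0114). Its groups did not overlap, and leaving out vehicle replicate 1 or 2 ended the call (0.0525 and 0.0507). Itgb5 (16419), another partner of αv, had 25.8, 26.4 and 28.4 FPKM with vehicle and 18.2, 18.0 and 24.4 with hemin. All hemin values were the lower ones, but the difference did not pass (log2 fold change -0.36 ± 0.13, SE, edgeR adjusted p = 0.0655). It was called lower without hemin replicate 3 (0.0184), with library totals alone (0.0372) and by limma on log2(FPKM + 1) (0.0457). The ratio of Itgb1 to Itgb8 was 5.04 to 7.17 with vehicle and 9.98 to 14.7 with hemin.

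Itgb2 (16414), the beta chain of leukocyte integrins, rose 3.17-fold at a low level, from 0.72, 0.47 and 0.31 FPKM to 1.84, 1.59 and 1.17 (edgeR adjusted p = 0.0139, and 0.0523 without vehicle replicate 2). Its partner Itgam (16409), the alpha chain of the complement receptor of microglia, rose 2.13-fold, from 0.67, 0.49 and 0.52 to 1.29, 1.22 and 0.94 FPKM (edgeR adjusted p = 0.02), and was not called without vehicle replicate 2 or 3, hemin replicate 2 or both libraries numbered 3. Beside these chains, the 10 microglia markers summed to 24.2 to 35.2 FPKM with vehicle and 39.1 to 42.2 with hemin, with a median log2 fold change of 0.72. edgeR called 0 of the 7 tested microglia markers, with 2 at an unadjusted p below 0.05, DESeq2 called 0, and none of the 10 was at 0 in all libraries. Their part in the Itgb2 and Itgam values was not tested. Itgb1bp1 and Itgb3bp, which carry an integrin prefix but encode a cytoplasmic adaptor and a nuclear protein, had 5.33 to 8.84 and 2.69 to 3.72 FPKM over the 6 libraries and did not pass (edgeR adjusted p = 0.446 and 0.674).

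Of the collagens, 4 were called higher and 1 lower. Col18a1 (12822), a basement membrane collagen whose end fragment is endostatin, rose 1.63-fold, from 14.1, 12.0 and 14.0 to 22.2, 19.2 and 21.9 FPKM (log2 fold change 0.71 ± 0.11, SE, edgeR adjusted p = 0.00407). It was the second most abundant collagen with vehicle and the most abundant with hemin by mean FPKM. Col5a1 (12831), a fibril-forming chain that starts collagen fibrils, rose 1.52-fold, from 2.45, 2.79 and 2.56 to 3.58, 4.09 and 3.77 FPKM (edgeR adjusted p = 0.00915, and 0.0508 without both libraries numbered 3). Neither gene had overlapping groups. Col4a5 (12830), a collagen IV chain, rose 1.59-fold, from 2.47, 3.19 and 2.34 to 3.63, 3.65 and 5.0 FPKM (edgeR adjusted p = 0.0275). This call ended when vehicle replicate 1 or 3 (edgeR adjusted p = 0.0929 and 0.0789), hemin replicate 3 (0.0727) or both libraries numbered 3 (0.149) were left out, and limma on log2(FPKM + 1) did not make it (0.0658). Col20a1 (73368), a fibril-associated collagen, rose 3.53-fold at a low level, from 8, 6 and 23 counts to 47, 42 and 37 (edgeR adjusted p = 0.0263). Its log2 fold change was 1.82 over all libraries and 2.64 without vehicle replicate 3, and it was not called in the absence of either of the vehicle replicates 1 and 2 (edgeR adjusted p = 0.0896 and 0.073) or of the hemin replicates 1 and 2 (0.0568 and 0.0694).

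Col9a2 (12840), a chain of the fibril-associated collagen IX, fell 4.74-fold, from 0.75, 0.49 and 0.65 FPKM to 0.16, 0.08 and 0.13 (edgeR adjusted p = 0.00605). The 2 groups were far apart at this low level, with 12 to 18 counts against 2 to 4. Collagen IX is a trimer of 3 chains, and the others did not pass. Col9a1 was counted 74, 41 and 10 times in the vehicle libraries and 14, 17 and 15 times in the hemin libraries (edgeR adjusted p = 0.135). Col9a3, the most abundant of the 3, stood at 6.44, 6.63 and 5.35 FPKM under vehicle and 5.74, 3.97 and 5.94 under hemin (edgeR adjusted p = 0.525). Col11a1 (12814), a fibrillar collagen of cartilage that had the highest FPKM among collagens with vehicle, stood at 15.5, 15.8 and 14.3 with vehicle and 19.6, 16.4 and 18.2 with hemin. Its groups did not overlap and the difference did not pass (log2 fold change 0.30 ± 0.11, SE, edgeR adjusted p = 0.0651). DESeq2 called it (0.0449). By class, 1 of 10 tested fibrillar collagens, 1 of 4 chains of collagen IV, 2 of 7 fibril-associated chains, 0 of 3 chains of collagen VI and Col18a1, the only multiplexin tested, were called. In either direction, 17.9% of tested collagens were called, against 31.9% of all genes tested. Each of these classes with more than 1 tested chain lay below the share of all genes. Col5a2, with 3.31 to 3.45 FPKM with vehicle and 3.69 to 6.16 with hemin, and Col2a1, with 0.16 to 0.34 and 0.38 to 1.09, likewise did not overlap and did not pass (edgeR adjusted p = 0.0631 and 0.064). Col5a3 overlapped, with 4.13 to 4.91 FPKM under vehicle and 3.42 to 4.5 under hemin. The other tested collagens at low levels, Col7a1, Col11a2, Col12a1, Col19a1, Col22a1, Col25a1, Col26a1 and Col27a1, had at most 1.11 FPKM in any library and were not called, with adjusted p-values from edgeR of 0.177 and above.

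Several collagens of fibrous and vascular tissue varied widely between the libraries of a group. Col4a1 and Col4a2, the main chains of basement membrane collagen IV, are neighbouring genes transcribed in opposite directions, with annotated starts 21 bases apart. Col4a1 had 3.73, 3.79 and 8.02 FPKM with vehicle and 4.18, 6.21 and 15.4 with hemin. Col4a2 had 1.79, 2.25 and 4.89 with vehicle and 2.20, 3.05 and 7.57 with hemin. Both were highest in the library numbered 3 of each group, and their ratio stayed between 1.64 and 2.08 in all 6 libraries. Neither passed the test (edgeR adjusted p = 0.284 and 0.459). With hemin replicate 3 left out, the log2 fold change of Col4a2 was -0.12 instead of 0.55 and that of Col4a1 0.07 instead of 0.76. Without vehicle replicate 3 they were 1.14 and 1.25, and without both libraries numbered 3 they were 0.47 and 0.56. Col4a5 and Col4a6, the other tested collagen IV pair, did not follow them as closely, with a ratio of 0.793 to 1.80, and Col4a6 did not pass (edgeR adjusted p = 0.726). Col3a1, a fibrillar collagen of soft tissue, had 0.54, 0.77 and 1.92 FPKM with vehicle and 0.59, 1.80 and 5.30 with hemin. Col1a1 and Col1a2, the chains of collagen I, had 0.77 and 0.84 FPKM in vehicle replicate 3 and 1.69 and 1.46 in hemin replicate 3, against 0.06 to 0.36 and 0.27 to 0.69 in the other libraries of the groups.

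**Figure D4:**
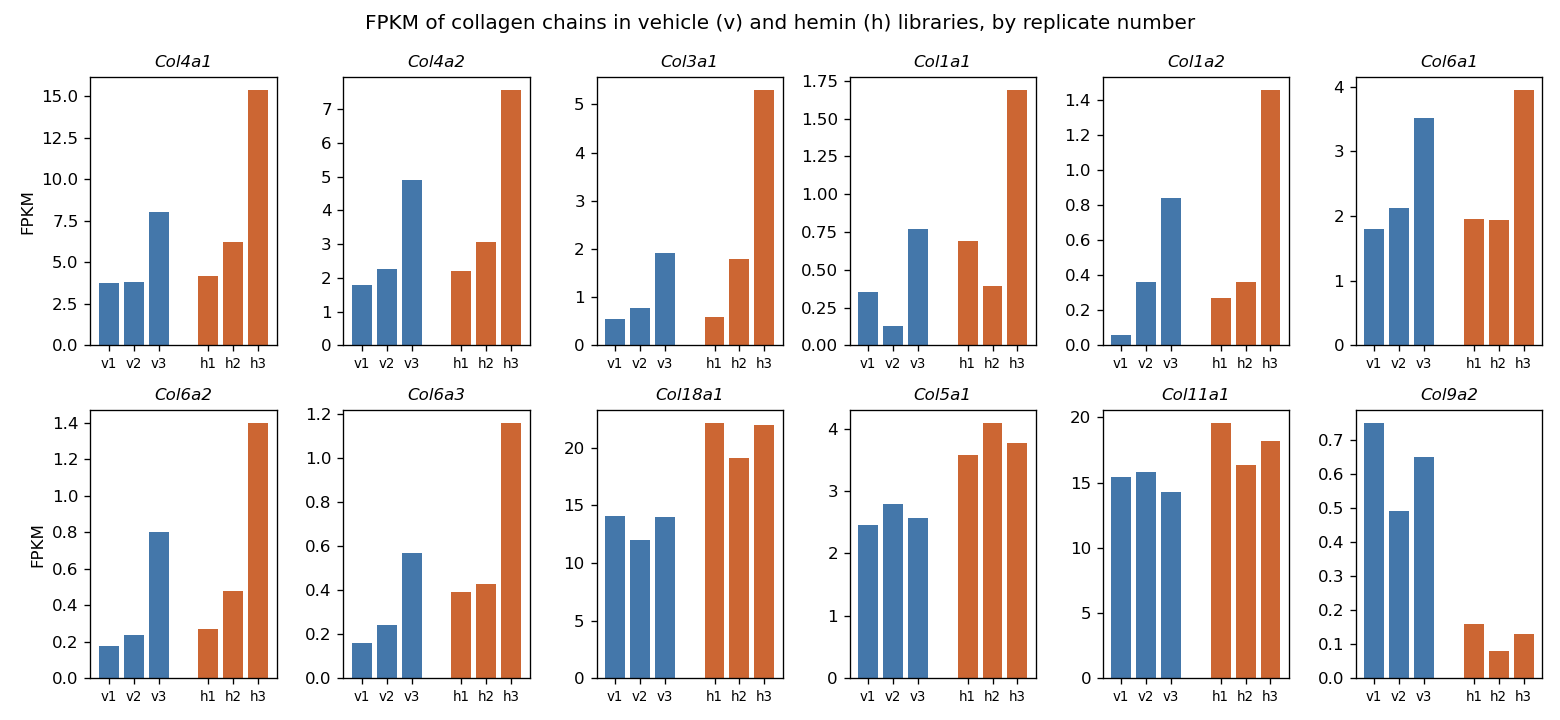
FPKM of 12 collagen genes in the vehicle (v1 to v3) and hemin (h1 to h3) libraries, each panel on its own linear axis from 0. In the 8 panels from Col4a1 to Col6a3 the library numbered 3 is the highest of each group. Col18a1, Col5a1, Col11a1 and Col9a2 separate by treatment, and Col11a1 did not pass the test.

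Collagen VI followed the same libraries. Col6a1, Col6a2 and Col6a3, the chains of its beaded filaments, were 1.79 to 3.81 times as high in vehicle replicate 3 as in the mean of the other 2 vehicle libraries, and 2.03 to 3.73 times as high in hemin replicate 3. None of the 3 passed (edgeR adjusted p = 0.831, 0.425 and 0.228). Over all tested members, the library numbered 3 was the highest of both groups for 17 of 54 (31.5%), against 15.1% of all genes tested. These were 11 of 28 collagens (39.3%), 4 of 8 laminins (50.0%) and 2 of 18 integrin symbols (11.1%). The libraries numbered 1 held that place for 11 members (20.4%, against 11.9%) and those numbered 2 for 4 members (7.41%, against 11.5%). The labels do not say what the number marks.

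Most markers of fibroblasts and meningeal cells were highest in these libraries, though not these markers alone. The library numbered 3 was the highest of both groups for 7 of the 10 markers, Dcn, Lum, Ogn, Islr, Fap, Foxc1 and Pdgfrb. It was so for 5 of 10 neuron markers, 3 of 10 pericyte and smooth muscle markers and 3 of 10 endothelial markers. For the OPC, astrocyte and microglia lists the number was 0, and over all genes tested the share was 15.1%. Dcn, a matrix proteoglycan, had 0.18, 0.32 and 0.79 FPKM with vehicle and 0.25, 0.62 and 1.37 with hemin, and Lum, another, 0.06, 0.06 and 0.28 and 0.06, 0.28 and 0.68. Summed FPKM of the list, most of it Thy1, which neurons also express, was 15.4 to 22.3 with vehicle and 22.4 to 24.0 with hemin, and 1 of 5 tested markers, Ogn, was called, higher (edgeR adjusted p = 0.0387). This call was not made by DESeq2, without the filter, or with vehicle replicate 1, vehicle replicate 2 or any hemin replicate left out. Pericyte and smooth muscle markers summed to 12.0 to 19.6 and 18.3 to 31.2, with 2 of 6 called, both higher, and endothelial markers to 1.61 to 3.01 and 6.05 to 7.76, with 3 of 5 called, all higher. These were Pecam1 (15.8-fold, from 0.153 ± 0.0153 to 2.34 ± 0.668 FPKM, SD, over 3 libraries each), Tek (12.6-fold) and Kdr (4.82-fold). Higher calls made up 20.0%, 33.3% and 60.0% of the tested fibroblast, pericyte and endothelial markers, beside 16.2% of all genes tested. The called markers Pecam1, Tek, Myh11 and Des had at most 5 counts in any vehicle library, and Kdr and Ogn had 5 to 11 and 5 to 15. Each of these called markers passed the filter through the hemin group. These shares therefore describe the tested markers only. None of the 30 fibroblast, pericyte and endothelial markers was at 0 in all libraries, and the lowest included Cldn5, a defining endothelial gene, at no more than 0.25 FPKM. The part of such cells in the collagen and laminin values was not tested.

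The 24 members that did not pass the filter had at most 0.62 FPKM in any library. For 8 of them (33.3%) all hemin values lay above the vehicle values and for none below, against 17.3% and 1.78% of the 5964 genes below the filter. The hemin libraries listed more genes in general, 16711 to 16890 against 15383 to 15495. Col10a1, a network collagen of growth plate cartilage, was counted 3 times in all with vehicle and 44 times with hemin, a ratio of 14.4, with a 95% exact interval from 4.60 to 72.2 that covers counting error only. Lamc3, a gamma chain, had 3 and 18 counts (ratio 5.87, interval 1.71 to 31.1), and Col8a1, a collagen of vessel walls, 14 and 33 (ratio 2.31, interval 1.20 to 4.66). Col23a1, a transmembrane collagen, went the other way, with 8, 6 and 0 counts in the vehicle libraries and 0 in each hemin library. Against a floor of 3 counts over the hemin group it was 4.77-fold lower. This value takes the vehicle counts as exact and is no lower limit. Itgb4, the beta chain of hemidesmosomes, and Itgb6, of epithelia, had 0 counts in each vehicle library. With hemin Itgb4 had 5, 7 and 0 counts, so that its groups overlapped, and Itgb6 had 5, 3 and 1. Summed over the group and against the same floor, Itgb4 was 3.91-fold and Itgb6 2.94-fold higher, again with the observed counts taken as exact. These members were picked after their values were seen.

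Genes that fold, modify and export collagen were called higher more often than lower. Of 34 tested genes of collagen folding, modification and cross-linking, 14 were called higher and 1 lower, with a median log2 fold change of 0.38, against 9 and 0 without both libraries numbered 3. The 14 and 1 are 41.2% and 2.94% of the list, beside 16.2% and 15.7% of all genes tested. Tll2, Tll1 and Lox, called higher, had 0 to 1, 4 to 12 and 7 to 15 counts in the vehicle libraries. They passed the filter through the hemin group, so these shares describe the tested genes only. The number called higher was 8 without vehicle replicate 1, 7 without vehicle replicate 2 and 8 without hemin replicate 2. Over all genes these settings called 1461, 1442 and 1544 higher. Without both libraries numbered 3 it was 1546, and with all libraries 2072. Serpinh1, the collagen-specific chaperone HSP47, rose 3.10-fold, from 36.2, 31.8 and 33.2 to 95.0, 126 and 80.1 FPKM (edgeR adjusted p = 0.000929). P4ha1, a prolyl hydroxylase subunit that needs iron, rose 2.07-fold, Plod2, a lysyl hydroxylase, 3.53-fold and Sec24d, a coat protein of the vesicles that export collagen, 5.03-fold. These 3 had edgeR adjusted p-values of 0.000935, 0.00243 and 0.00178. Adamts3, a procollagen N-propeptidase, was the gene called lower, by 1.71-fold (edgeR adjusted p = 0.0261).

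Other matrix glycoproteins were called in both directions, 7 of 27 tested higher and 3 lower, with a median log2 fold change of 0.40. Those shares, 25.9% and 11.1%, stand beside 16.2% and 15.7% of all genes. Spp1, osteopontin, a ligand of αv and α5 integrins, rose 4.35-fold from 17.2, 17.6 and 21.6 to 94.1, 86.4 and 54.7 FPKM (edgeR adjusted p = 0.00106). Ccn1, a matricellular integrin ligand, rose 5.63-fold, Fbln5, an elastic fibre protein, 7.33-fold and Thbs1, thrombospondin, 8.25-fold (edgeR adjusted p = 0.00228, 0.00312 and 0.00482). Fbln5 had 8 to 10 counts in the vehicle libraries and passed the filter through the hemin group. The shares of this list therefore describe its tested genes only. Smoc1 and Ntn4, a calcium-binding matrix protein and a laminin-related netrin, fell 2.28-fold and 1.73-fold (edgeR adjusted p = 0.00182 and 0.00632).

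Of 36 tested genes of integrin adhesion and signalling, 12 were called higher and 4 lower, with a median log2 fold change of 0.27. The shares were 33.3% higher and 11.1% lower, beside 16.2% and 15.7% of all genes. Without hemin replicate 2 the numbers were 8 and 2. Over all genes that setting called 1544 higher and 1344 lower, against 2072 and 2005 with all libraries. Cd63, a tetraspanin, rose 1.69-fold, Rap1b, a small GTPase that activates integrins, 1.53-fold, Fermt3, the blood cell kindlin, 9.08-fold from 0.13, 0.22 and 0.17 to 1.83, 2.04 and 0.85 FPKM, and Cd151, the tetraspanin partner of laminin-binding integrins, 2.24-fold. Their edgeR adjusted p-values were 0.000993, 0.00249, 0.0029 and 0.00467. Fermt3 had 3 to 5 counts in the vehicle libraries and passed the filter through the hemin group. The shares of this list therefore describe its tested genes only. Dag1, the non-integrin laminin receptor dystroglycan, fell 1.71-fold, from 49.7, 47.9 and 50.7 to 26.8, 26.6 and 30.1 FPKM (edgeR adjusted p = 0.00093), and the kinase Src fell 2.09-fold (0.00309). Core links between integrins and actin were unequal, with Vcl, vinculin, called higher (1.41-fold, edgeR adjusted p = 0.0113). Of the same list, Zyx, Flna, Vasp, Actn4, Pxn and Lims1 were also called higher (1.30-fold to 2.04-fold), and Tns2 and Tns3 lower. Tln1, talin, had 14.9 to 16.0 FPKM with vehicle and 12.9 to 17.7 with hemin, and Ilk, the integrin-linked kinase, 57.8 to 61.0 and 49.2 to 68.0 (edgeR adjusted p = 0.948 and 0.876).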

How the data were processed

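RNA was sequenced from 3 vehicle and 3 hemin samples of cultured mouse OPCs. Trizol extraction, enrichment of mRNA and amplification by PCR preceded Illumina sequencing, per the labels' protocols. The submitters' processing notes name Bowtie 0.12.2, RSEM and the builds mm8 and mm9, without saying which build was used. For the annotation and any use of strand, nothing is given in the sources used here. Per the file headers, the deposited tables hold expected counts per transcript, which the authors estimated and did not scale for depth. Per the same headers they hold FPKM, which the authors scaled by transcript length and library size.

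Both values were summed per gene, with a gene missing from a library set to 0, and expected counts were rounded to whole numbers. Symbols come from the RefSeq gene table of GRCm38.p6, which matched 18711 of 18743 genes, and promoter sequences from RefSeq of the same assembly. In R 4.3.3, edgeR 4.0.16 kept genes by filterByExpr (minimum count 10, minimum total 15), computed TMM factors and ran a two-sided quasi-likelihood test without covariates, adjusted over 12779 genes. The procedure was tested on simulated data. The alternatives were median-of-ratios factors, library totals alone, DESeq2 1.42.0, no filter, limma 3.58.1 on log2(FPKM + 1) and log2(FPKM + 0.1), a replicate block and the omission of each library. A fold on the log2(FPKM + 1) scale understates the change of low genes. Leaving out both libraries numbered 3 was added after the data were seen. Depth differed little between libraries. Counting intervals cover counting error only, since amplified reads lacking molecular identifiers cannot be taken as separate molecules. Folds against a floor take the observed counts as exact and are not lower limits.

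The members and lists were chosen with earlier results of these data known. Named members are, per family, up to 6 called with the largest rise or fall, the 4 with the highest vehicle FPKM, any called against its class, and those not called with a group mean of at least 5 FPKM. Partner lists name up to 4 called genes by smallest p in the commoner direction and 2 in the other. Lama2, Itga1, Itga2, Itga3, Itga4, Itga8, Itga10, Itgb3, Itgb3bp, Itgav, Itgam, Vcl, Tln1, Ilk, the collagens Col1a1, Col1a2, Col2a1, Col3a1, Col4a2, Col4a6, Col5a2, Col5a3, Col6a1, Col6a2, Col6a3 and Col9a1, the low collagens listed with them, and the members below the filter fall outside this rule and were named after their values were seen. The same holds for Zyx, Flna, Vasp, Actn4, Pxn, Lims1, Tns2, Tns3, Tll1, Tll2 and Lox. One member that the rule selects is counted in the totals and is not reported here.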

Additional observations from a re-analysis of the deposited data

How the results depend on the processing

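Of the 17 called members, 10 were called in all 14 alternatives, 7 lost the call in at least 1 and 0 changed sign. Among the 10 are Lamc1, Lamb1, Lama4, Lama1, Itga5, Itga7, Itga2b, Col18a1 and Col9a2. Over the settings that kept all libraries, 13 to 19 members were called higher and 3 to 4 lower. Leaving out 1 library gave 12 to 17 higher and 1 to 4 lower, with 1 lower without vehicle replicate 1 or vehicle replicate 2. Over all genes, the settings that kept all libraries called 1715 to 2180 higher and 1836 to 2582 lower. Leaving out 1 library called 1442 to 2213 higher and 1109 to 2317 lower. The lower calls were 1136 without vehicle replicate 1 and 1109 without vehicle replicate 2. The log2 fold change of Col4a2 ran from -0.12 without hemin replicate 3 to 1.14 without vehicle replicate 3. That of Lamb2 ran from -0.09 without hemin replicate 3 to 0.15 without hemin replicate 1, and was -0.02 with library totals alone and -0.01 without both libraries numbered 3. The cause was not tested. With library totals alone the median log2 fold change of all genes was -0.09. The labels number the replicates 1 to 3 in both groups without saying what the numbers share. Deviations of same-numbered libraries correlated at 0.0631, 0.1 and 0.157 and those of other pairs at -0.116 to 0.0227, so that each library correlated best with its own number, a hint from the data and not from the design. With the replicate block 19 members were called higher and 4 lower, and over all genes 1892 and 1836, against 2072 and 2005 without the block. The paired fit also called Col4a1 and Col4a2 higher, with log2 fold changes of 0.67 and 0.51 (edgeR adjusted p = 0.0331 and 0.044), called Itgb5 lower (0.0472) and did not call Col4a5 (0.0582). With 3 libraries a group and 1 to 3 counts in some of them, smaller changes of the low members were not detectable.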
